A study of Caenorhabditis elegans with 6 samples.

Results

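The 6 vitellogenin genes of *Caenorhabditis elegans* (*vit-1*, *vit-2*, *vit-3*, *vit-4*, *vit-5* and *vit-6*) were taken from the 46904 genes of the deposited table by their gene names, and all 6 were found. The data are 6 libraries of RNA bound to tagged ribosomes, all from young adults of strain CLP1481, which carries the extrachromosomal array twnEx675 with Ptbh-1::rpl-22::3xHA and, as a second transgene, Pgcy-8::gfp. In 3 libraries the animals had spent 6 h on bacteria with antimycin A at 4.5 µM, a drug that blocks complex III of the respiratory chain, and in the other 3 they had spent 6 h on bacteria with EtOH, the vehicle. All were cultured at 20 °C. The design text gives 3 independent experiments, each with 1 trained (antimycin A) and 1 control (EtOH) library, and the comparison asks which RNA on the tagged ribosomes changed with the antimycin A training. The tagged ribosomal protein is driven by the *tbh-1* promoter; *tbh-1* encodes tyramine beta-hydroxylase, which makes octopamine, and the labels name *tbh-1* expressing neurons as the cells. Values are TPM, each gene's length-scaled share of a library, which hold no read depth, so no counting interval can be given. Each library gives relative levels only, so fewer cells of a type and less RNA per cell cannot be told apart in these bulk samples.

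Vitellogenins are the yolk protein precursors. In *C. elegans* they are made in the intestine of the adult hermaphrodite, secreted into the body cavity as lipoprotein particles and taken up by growing oocytes through the receptor RME-2. *vit-1* and *vit-2* encode one closely related pair of large yolk polypeptides, *vit-3*, *vit-4* and *vit-5* encode a second, near-identical set, and *vit-6* encodes a precursor that is cleaved into 2 smaller yolk proteins. Reads from near-identical copies can be assigned to either copy, so the separate values within *vit-3*, *vit-4* and *vit-5*, and between *vit-1* and *vit-2*, are less certain than their sums.

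The genes lie at 5 places on chromosome X and 1 on chromosome IV (build WBcel235, coordinates as the deposited table gives them). *vit-5* (WBGene00006929) spans X, 3403471 to 3408603, on the plus strand. *vit-4* (WBGene00006928; X, 3558839 to 3563974) and *vit-3* (WBGene00006927; X, 3567355 to 3572549) are both on the minus strand, 3381 bp apart with no other protein-coding gene between them. *vit-2* (WBGene00006926) spans X, 5101032 to 5106173, and *vit-1* (WBGene00006925) spans X, 7727889 to 7733168, both on the plus strand. *vit-6* (WBGene00006930) spans IV, 8261134 to 8266462, on the plus strand. The annotated spans are 5133 to 5329 bp. Annotated non-coding RNA genes on the opposite strand overlap *vit-3*, *vit-4* and *vit-6*, and each was at 0 or below 0.0001 TPM on average in both groups.

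Intestine marker RNA was measured in every library beside that of *tbh-1* and of neuronal markers. All 13 intestine markers passed the filter for testing (1 TPM or more in at least 3 libraries), and their TPM summed to 3736 to 7007 in the antimycin A libraries and 7736 to 9606 in the EtOH libraries. *tbh-1* itself stood at 2098 TPM ± 616 in antimycin A and 1666 TPM ± 66.8 in EtOH (SD, n = 3 each; limma log2 fold change 0.29 ± 0.24 SE, adjusted p = 0.502; -0.020 under median-of-ratios scaling). The 12 pan-neuronal markers summed to 314 to 612 TPM in antimycin A and 185 to 393 TPM in EtOH. *tdc-1*, the tyrosine decarboxylase gene of the same pathway, stood at 16.3 TPM ± 5.48 and 13.5 TPM ± 8.72 in antimycin A and EtOH, and *cat-1*, the vesicular monoamine transporter gene, at 2.60 TPM ± 0.990 and 1.38 TPM ± 0.377. Which cells the vitellogenin RNA and the *tbh-1* RNA came from was not tested.

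Vitellogenin RNA was lower in antimycin A for every one of the 6 genes. The 6 genes together took 0.492%, 0.330% and 0.235% of all TPM for antimycin A replicates 1 to 3, against 1.08%, 1.35% and 1.54% in EtOH replicates 1 to 3. The sum was 45.6%, 24.5% and 15.3% of the EtOH value in the same-numbered pairs 1, 2 and 3. Each antimycin A library was below each EtOH library for all 6 genes, which held for 11.6% of the 11099 genes tested. With limma on log2(TPM + 1), all 6 genes passed an adjusted p of 0.05 as lower, where 6.47% of all tested genes did (718 genes) and 14.2% passed as higher (1579 genes). Among the 1044 tested genes with a mean of 100 TPM or more, a level that all 6 vitellogenin genes exceed, 28.9% passed as lower. The median log2 fold change was -1.94 over the 6 genes and 0.21 over all tested genes. Median-of-ratios scaling moved the all-gene median to -0.05 and the median of the 6 genes to -2.25, and quantile normalization moved them to -0.09 and -1.57. The share of called genes that were higher was 68.7% as first fitted, 52.3% under median-of-ratios scaling and 50.4% under quantile normalization. The counts over all genes also moved when a single library was left out. Among these fits, genes higher moved most without antimycin A replicate 2 (768), antimycin A replicate 1 (943) or EtOH replicate 2 (991). Genes lower moved most without EtOH replicate 2 (410), antimycin A replicate 2 (454) or EtOH replicate 3 (494). Without both libraries of pair 2, 391 genes were higher and 162 lower. With the replicate number as a block, 3282 were higher and 1442 lower.

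The libraries also differed in ribosomal RNA. Genes annotated as rRNA took 6.10%, 7.99% and 19.03% of all TPM for antimycin A replicates 1 to 3, against 8.65%, 12.9% and 9.49% in EtOH replicates 1 to 3. Antimycin A replicate 3 had the highest rRNA share of the 6 libraries and the lowest vitellogenin sum. Without that library all 6 vitellogenin genes still passed as lower, with a median log2 fold change of -1.70. Scaled to the total of protein-coding genes, which leaves rRNA out, all 6 passed as well, with a median of -1.91.

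**Figure D1:**
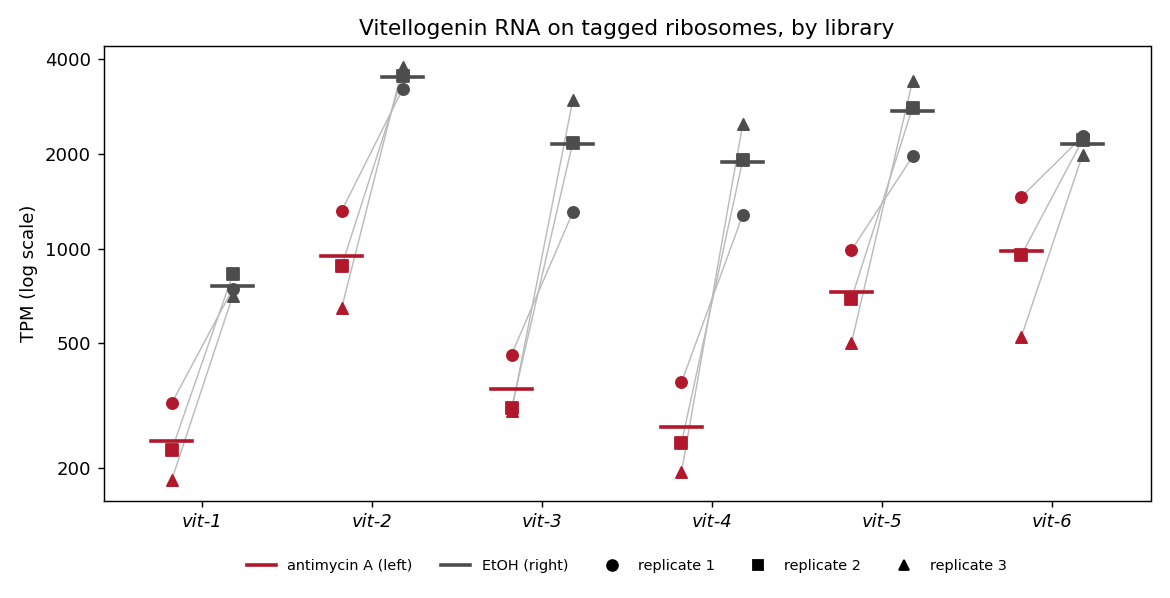
TPM of each vitellogenin gene in every library on a log axis, antimycin A at left and EtOH at right, with a bar at each group's mean and thin lines joining same-numbered libraries. No antimycin A point reaches an EtOH point of the same gene, and *vit-6* has the smallest gap, with 1460 TPM in antimycin A replicate 1 and 1985 TPM in EtOH replicate 3.

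*vit-4* had the largest change of the family. It read 375, 240.4 and 195 TPM for antimycin A replicates 1 to 3, against 1277, 1907 and 2484 TPM in EtOH replicates 1 to 3. Antimycin A replicate 3 and EtOH replicate 3 were the lowest and the highest of all 6 libraries. Its mean fell to 270.1 TPM ± 93.9 in antimycin A, against 1889 TPM ± 604 in EtOH (SD, n = 3 each; log2 fold change -2.80 ± 0.30 SE, limma adjusted p = 1.31e-04). Of the 11099 genes tested, 29 had a lower log2 fold change.

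*vit-3*, its neighbour and near-identical copy, followed closely. It read 460.1, 311 and 303 TPM for antimycin A replicates 1 to 3, against 1303, 2176 and 2964 TPM in EtOH replicates 1 to 3. As for *vit-4*, EtOH replicate 1 was the lowest of the EtOH libraries and antimycin A replicate 1 the highest of its group. The fitted log2 fold change was -2.53 ± 0.30 SE (limma adjusted p = 2.59e-04). *vit-3* and *vit-4* together were at 32.4%, 13.5% and 9.14% of EtOH in pairs 1, 2 and 3.

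*vit-5*, the third gene of that set, read 987, 692 and 499.9 TPM for antimycin A replicates 1 to 3, against 1964, 2809 and 3423 TPM in EtOH replicates 1 to 3. It repeated the order of libraries seen for *vit-3* and *vit-4* in both groups. Its log2 fold change was -1.93 ± 0.29 SE (limma adjusted p = 0.00105). The EtOH libraries of these 3 genes varied most within the family, with a coefficient of variation of 38.7% for *vit-3*, 32.0% for *vit-4* and 26.8% for *vit-5*, against 8.08% for *vit-1*, 8.16% for *vit-2* and 7.12% for *vit-6*.

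*vit-2* was the most abundant vitellogenin RNA in every EtOH library. It read 1319, 879 and 646 TPM for antimycin A replicates 1 to 3, against 3222, 3544 and 3796 TPM in EtOH replicates 1 to 3. Among protein-coding genes it ranked 60, 98 and 127 in the antimycin A libraries and 21, 18 and 17 in the EtOH libraries. The log2 fold change was -1.95 ± 0.26 SE (limma adjusted p = 4.99e-04). *vit-1*, its relative, had the lowest EtOH mean of the family. It read 322, 228 and 183 TPM for antimycin A replicates 1 to 3, against 746, 829 and 709 TPM in EtOH replicates 1 to 3, and its log2 fold change was -1.67 ± 0.23 SE (limma adjusted p = 6.03e-04).

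*vit-6*, the only member outside chromosome X, changed least. It read 1460, 954 and 524 TPM for antimycin A replicates 1 to 3, against 2275, 2218 and 1985 TPM in EtOH replicates 1 to 3. The antimycin A libraries spread widely, with a coefficient of variation of 47.8%, while the EtOH libraries were close together. Its mean fell to 979 TPM ± 468 in antimycin A, against 2159 TPM ± 154 in EtOH (log2 fold change -1.26 ± 0.32 SE, limma adjusted p = 0.0197). This call was lost without antimycin A replicate 2 (adjusted p = 0.0689), without EtOH replicate 2 (0.0680), and without both libraries of pair 2 (0.183) or pair 3 (0.0552), and also under quantile normalization (0.0740) and with no filter on low values (0.106). It passed with the replicate number as a block (adjusted p = 2.79e-06), and the other 5 genes passed under each of the 17 alternatives run, with a highest adjusted p of 0.0350 (*vit-5*, without both libraries of pair 2).

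In the order of EtOH means *vit-2* came first, then *vit-5*, *vit-6*, *vit-3*, *vit-4* and *vit-1*. The EtOH ranges of *vit-5*, *vit-6*, *vit-3* and *vit-4* overlapped one another, while *vit-2* and *vit-1* overlapped only with *vit-5* and with none. In the order of antimycin A means *vit-6* came first, at 979 TPM, and then *vit-2*, *vit-5*, *vit-3*, *vit-4* and *vit-1*, at 948, 726, 358, 270.1 and 244 TPM. There *vit-6*, *vit-2* and *vit-5* overlapped one another, as did *vit-3*, *vit-4* and *vit-1*. The lowest library of the first trio, 499.9 TPM for *vit-5*, was above the highest of the second, 460.1 TPM for *vit-3*.

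The size of the change differed between the same-numbered pairs. In pair 1 the log2 ratio of antimycin A over EtOH ran from -1.77 for *vit-4* to -0.64 for *vit-6*. In pair 2 it ran from -2.99 for *vit-4* to -1.22 for *vit-6*, and in pair 3 from -3.67 for *vit-4* to -1.92 for *vit-6*. *vit-4* had the lowest ratio in every pair, *vit-3* the second lowest and *vit-6* the highest. All 18 ratios were below 0, a direction that 20.1% of the tested genes showed in all 3 of their pairs. The replicate numbers pair the libraries, and with the number as a block 42.6% of the tested genes passed in either direction and 12.99% (1442 genes) passed as lower, and the 6 vitellogenin genes were among those lower. Blocked adjusted p values ran from 4.38e-12 for *vit-4* to 2.79e-06 for *vit-6*.

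**Figure D2:**
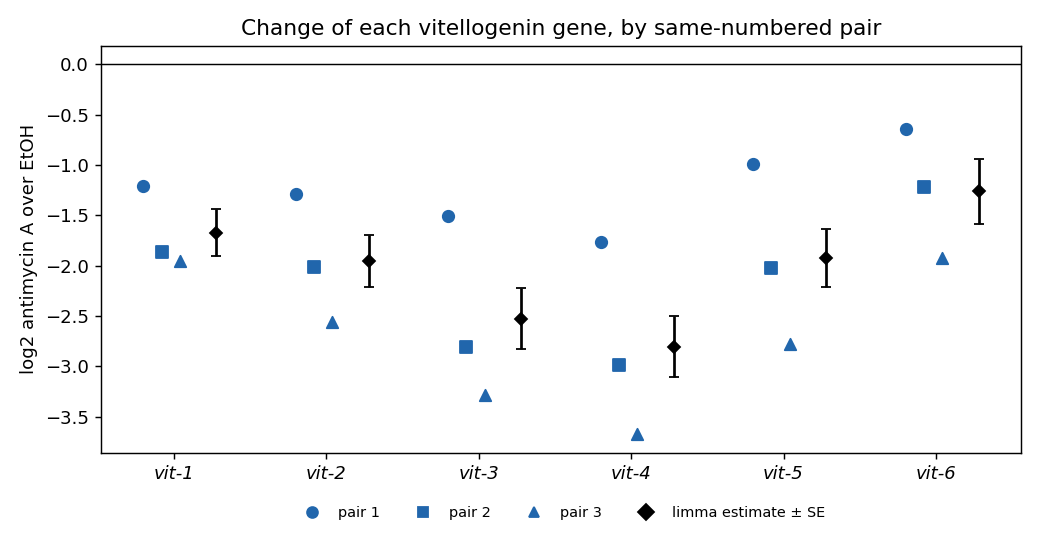
Log2 ratio of antimycin A over EtOH for each vitellogenin gene in the 3 same-numbered pairs (blue, of TPM) and the limma estimate with its SE (black, on log2(TPM + 1)). Every point is below 0, pair 1 is nearest to 0 for each gene, and *vit-4* is lowest in each pair.

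The authors' deposited table gives the same direction for each gene. In the authors' deposited table the log2 ratio of antimycin A over EtOH is -2.81 for *vit-4*, -2.58 for *vit-3*, -1.91 for *vit-5*, -1.89 for *vit-2*, -1.64 for *vit-1* and -1.14 for *vit-6*. The q values in the authors' deposited table run from 1.97e-17 for *vit-4* to 3.96e-07 for *vit-6*, and 2.94% of all its 46904 genes (1379 genes) are lower at q below 0.05. That total includes genes without signal, 30522 to 32608 of them at 0 in a library. The share is therefore not comparable with the 6.47% of the 11099 genes tested here. In the authors' deposited tables of single pairs none of the 6 genes is below a q of 0.05. The lowest q is 0.450, for *vit-4* in pair 3, and 0.294%, 0.064% and 0.0554% of all genes are below 0.05 in the tables of pairs 1, 2 and 3.

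The make-up of the vitellogenin RNA was compared as each gene's share of the summed TPM of the family within a library. *vit-6* took 29.6%, 28.9% and 22.3% for antimycin A replicates 1 to 3, against 21.1%, 16.5% and 12.9% in EtOH replicates 1 to 3. Every antimycin A share was above every EtOH share, and the share was 8.56, 12.4 and 9.38 points higher in pairs 1, 2 and 3. *vit-4* took 7.62%, 7.27% and 8.28% in antimycin A, against 11.8%, 14.1% and 16.2% in EtOH, with no overlap in the other direction. The two-sided exact permutation p was 0.1 for both, the smallest that 3 against 3 libraries allow, and 0.3 after Benjamini-Hochberg adjustment over the 6 genes. The permutation treated the libraries as unpaired. The 6 shares of a library sum to 100%, so the *vit-6* and *vit-4* differences are not independent of each other.

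The other shares overlapped between the groups. *vit-3* took 10.6% ± 2.03 in antimycin A and 15.8% ± 3.62 in EtOH (SD, n = 3 each; exact permutation p = 0.2, adjusted 0.4), and was lower in all 3 pairs. *vit-2* took 27.0% ± 0.457 in antimycin A and 27.0% ± 2.65 in EtOH, *vit-5* 20.8% ± 0.623 and 20.4% ± 2.06, and *vit-1* 7.08% ± 0.649 and 5.89% ± 1.17, with exact permutation p values of 1, 0.8 and 0.3. *vit-3*, *vit-4* and *vit-5* together held 37.0%, 37.6% and 42.4% of the family for antimycin A replicates 1 to 3, against 42.1%, 51.1% and 57.8% in EtOH replicates 1 to 3, so antimycin A replicate 3 was just above EtOH replicate 1. *vit-1* and *vit-2* together held 34.0% ± 1.08 in antimycin A and 32.8% ± 3.75 in EtOH. Within the near-identical set the ratio of *vit-5* to *vit-4* was 2.63, 2.88 and 2.57 for antimycin A replicates 1 to 3, against 1.54, 1.47 and 1.38 in EtOH replicates 1 to 3. The ratio of *vit-3* to *vit-4* was nearer to 1, at 1.23, 1.29 and 1.56 in antimycin A and 1.02, 1.14 and 1.19 in EtOH.

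**Figure D3:**
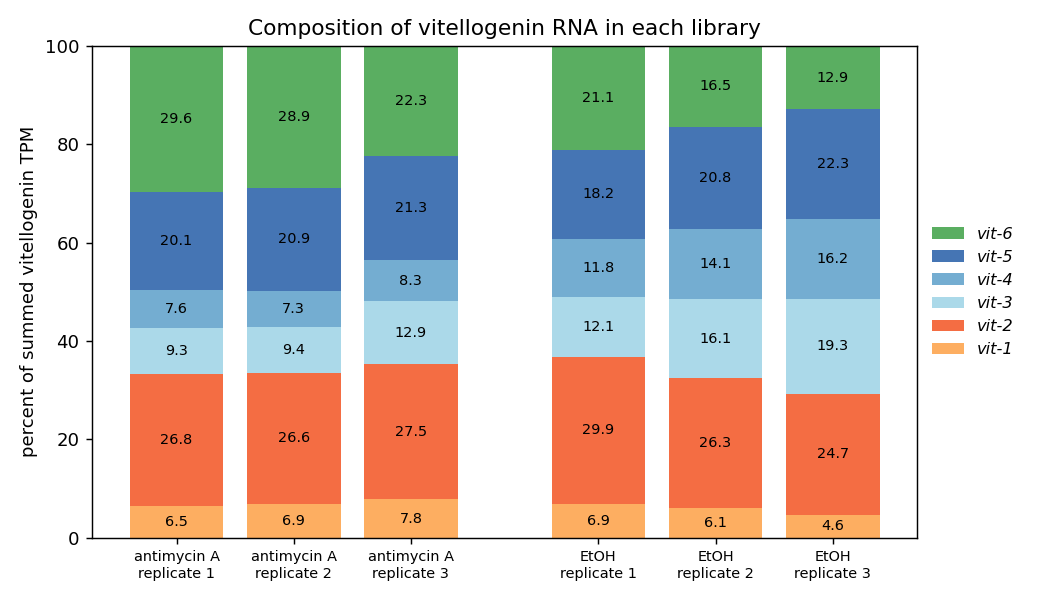
Percent of the summed vitellogenin TPM held by each gene in each library, antimycin A libraries at left and EtOH libraries at right. *vit-6* (top) takes 22.3% to 29.6% of the antimycin A bars and 12.9% to 21.1% of the EtOH bars, and *vit-4* 7.27% to 8.28% and 11.8% to 16.2%.

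Markers of the intestine, where vitellogenins are made, were mixed. Of 13 tested, 6 (46.2%) fell, 3 (23.1%) rose and 4 were not called (median log2 fold change -0.84), beside the 6.47% and 14.2% of all tested genes. *cpr-6*, a cathepsin B-like protease gene, fell to 1014 TPM ± 201 in antimycin A, against 2963 TPM ± 225 in EtOH (-1.56 ± 0.20 SE, limma adjusted p = 4.58e-04). The aquaporin gene *aqp-4* (-2.02 ± 0.37, adjusted p = 0.00326), the peptide transporter gene *pept-1* (-1.75 ± 0.33, 0.00371) and the intermediate filament gene *ifb-2* (-1.30 ± 0.22, 0.00224) fell as well. In the other direction *elt-7*, for an intestinal GATA factor, rose to 32.9 TPM ± 2.84 in antimycin A, against 13.8 TPM ± 0.974 in EtOH (1.19 ± 0.24, adjusted p = 0.00608; 0.0608 under median-of-ratios scaling). *ges-1* (1.15 ± 0.27, limma adjusted p = 0.0117) and *cpr-1* (0.97 ± 0.28, 0.0312) rose as well. The summed vitellogenin TPM was 0.703, 0.596 and 0.629 times the summed intestine marker TPM for antimycin A replicates 1 to 3, against 1.12, 1.61 and 1.99 times in EtOH replicates 1 to 3, and the part of the intestine's RNA in the vitellogenin change was not tested. The marker sum is mostly *asp-1*, *cpr-6*, *act-5*, *cpr-1*, *lys-8* and *mtl-2*, which moved in different directions. Of these *asp-1* (-1.66, limma adjusted p = 0.0233), *cpr-6* and *act-5* (-0.84, 0.0229) fell, and *cpr-1* rose. *lys-8* and *mtl-2* were not called. This ratio was added after the values were seen. The count of intestine markers that rose was 1 without antimycin A replicate 1 or 2 or EtOH replicate 3, and without both libraries of pair 2, 1 fell and 0 rose, with adjusted p values of 0.145 for *aqp-4*, 0.0888 for *pept-1*, 0.0750 for *ifb-2* and 0.188 for *elt-7*. With the block 8 fell and 5 rose, where 1442 (12.99%) of the 11099 tested genes were lower and 3282 higher. The numbers of markers that rose were 1 under median-of-ratios scaling and 5 under quantile normalization.

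**Figure D4:**
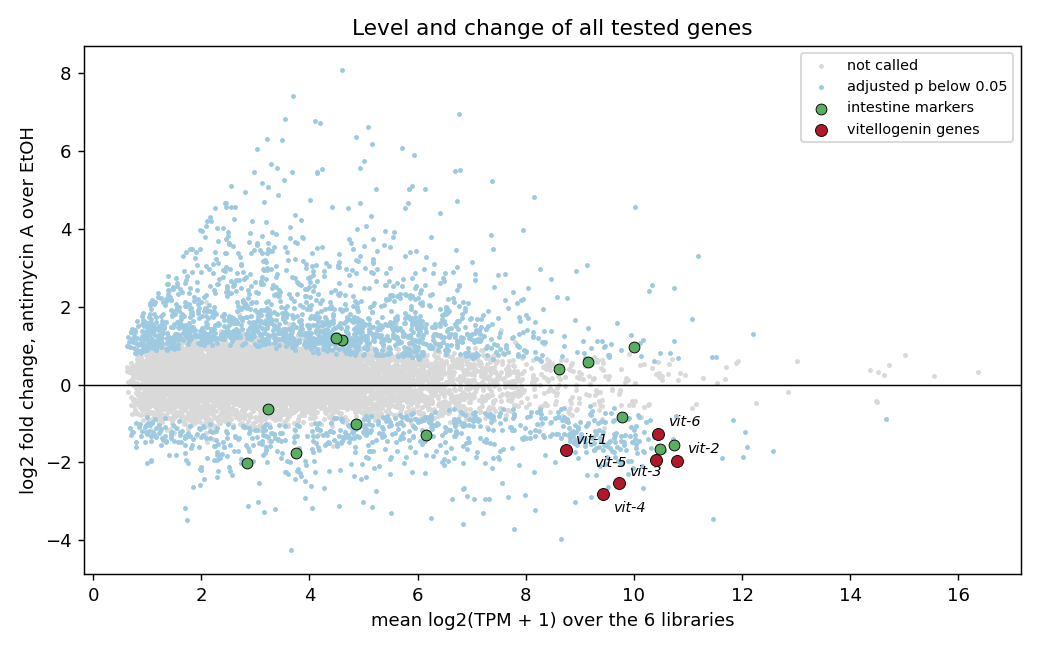
Mean log2(TPM + 1) over the 6 libraries (x) and log2 fold change of antimycin A over EtOH (y) for 11099 genes, with genes past an adjusted p of 0.05 in blue, the 13 intestine markers in green and the 6 vitellogenin genes in red. The vitellogenin genes lie between -2.80 and -1.26, and the intestine markers lie on both sides of 0.

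Genes that control vitellogenin transcription were called at a share near that of all genes. Of 17 such genes, 13 were tested, 2 (15.4%) rose, 0 fell and 11 were not called by limma (at an unadjusted p under 0.05, 3 higher and 0 lower), beside 14.2% higher and 6.47% lower among all tested genes, and the list median was 0.49. *pqm-1*, for a zinc finger factor, rose to 173, 162 and 162 TPM for antimycin A replicates 1 to 3, against 42.4, 49.5 and 48.7 TPM in EtOH replicates 1 to 3 (1.81 ± 0.19 SE, limma adjusted p = 1.28e-04). The groups stood far apart, with each antimycin A library more than 100 TPM above each EtOH library. *elt-7*, given above, was the second gene that rose.

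The factors best known as activators of the vitellogenin promoters did not pass unless the block was fitted or the scaling changed, and *unc-62* passed in neither case. *elt-2*, for the main GATA factor of the intestine, stood at 6.73 TPM ± 1.97 in antimycin A and 10.7 TPM ± 1.22 in EtOH (log2 fold change -0.62 ± 0.33 SE, limma adjusted p = 0.240, blocked 0.0213). *ceh-60*, for a PBC-class homeodomain partner of UNC-62, stood at 8.89 TPM ± 2.28 and 13.3 TPM ± 1.64 in antimycin A and EtOH (-0.55 ± 0.30, adjusted p = 0.266, blocked 0.0297). Both passed as lower under median-of-ratios scaling (adjusted p = 0.0192 for *elt-2* and 0.0287 for *ceh-60*) and under quantile normalization (0.0157 and 0.0183). *unc-62*, for the Meis-class homeodomain factor itself, stood at 6.93 TPM ± 0.664 and 8.83 TPM ± 4.09 (-0.24 ± 0.36; adjusted p = 0.756 without and 0.434 with the block). *mab-3*, a repressor of vitellogenin genes in males, was below the filter at 0 to 0.388 TPM over the 6 libraries. *daf-16* (0.64 ± 0.32, adjusted p = 0.221, blocked 0.00534) and *dbl-1*, for a BMP-like ligand (1.11 ± 0.40, adjusted p = 0.0798, blocked 2.74e-04), were the remaining genes with the smallest p values. *dbl-1* also passed as higher under median-of-ratios scaling (limma adjusted p = 0.0427) and scaled to the protein-coding total (0.0436). With the block 4 of the list rose and 2 fell, where 3282 of the 11099 tested genes were higher and 1442 lower. When EtOH replicate 1 was left out 4 rose, where 2059 of 10703 tested genes were higher.

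Of 14 genes for yolk particle assembly, uptake and breakdown, 13 were tested, 2 (15.4%) rose, 0 fell and 11 were not called by limma (at an unadjusted p under 0.05, 3 higher and 1 lower; list median 0.32). These shares are again near the 14.2% higher and 6.47% lower among all tested genes. *dsc-4*, for the microsomal triglyceride transfer protein that loads lipid onto vitellogenin, stood at 19.8, 15.6 and 12.9 TPM for antimycin A replicates 1 to 3, against 24.2, 24.8 and 25.6 TPM in EtOH replicates 1 to 3. The groups did not overlap, but the change did not pass (-0.62 ± 0.26 SE, limma adjusted p = 0.137), except with the block (0.00784), median-of-ratios scaling (0.0267) or quantile normalization (0.0117). *sar-1*, for the GTPase of secretory vesicle budding, rose to 228 TPM ± 42.1 in antimycin A, against 118 TPM ± 11.6 in EtOH (0.93 ± 0.21, adjusted p = 0.0109). *rab-7*, for a late endosome GTPase, rose to 199 TPM ± 32.0, against 91.3 TPM ± 29.8 in EtOH (1.15 ± 0.25, adjusted p = 0.00959). The *sar-1* call was lost without antimycin A replicate 2 (adjusted p = 0.0665), without EtOH replicate 2 (0.0506) and under median-of-ratios scaling (0.0977), and the *rab-7* call without EtOH replicate 2 (0.0526). Without both libraries of pair 2 both were lost (0.247 for *sar-1* and 0.172 for *rab-7*).

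The yolk receptor gene *rme-2* read 56.0, 29.8 and 22.2 TPM for antimycin A replicates 1 to 3, against 56.3, 15.5 and 12.1 TPM in EtOH replicates 1 to 3. Its groups overlapped fully, and replicate 1 was highest in both (0.57 ± 0.53 SE, limma adjusted p = 0.567, blocked 0.0137). *cpl-1*, for a cathepsin L-like protease that acts on yolk in embryos, was abundant at 6992 TPM ± 1447 in antimycin A and 7951 TPM ± 1004 in EtOH (-0.20 ± 0.23, adjusted p = 0.663, and 0.029 under quantile normalization). *rab-5*, for an early endosome GTPase (0.67 ± 0.24, adjusted p = 0.0830, blocked 5.31e-04), and *lrp-2*, for an LDL receptor-related protein (0.16 ± 0.29, adjusted p = 0.812, -0.023 under median-of-ratios scaling and -0.14 under quantile normalization), did not pass as first fitted. *rab-5* also passed as higher scaled to the protein-coding total (limma adjusted p = 0.0420). With the block 6 genes of the list rose and 1 fell, where 3282 of the 11099 tested genes were higher and 1442 lower. Leaving out EtOH replicate 1, antimycin A replicate 2 or EtOH replicate 2 gave 5, 1 and 0 genes that rose.

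**Figure D5:**
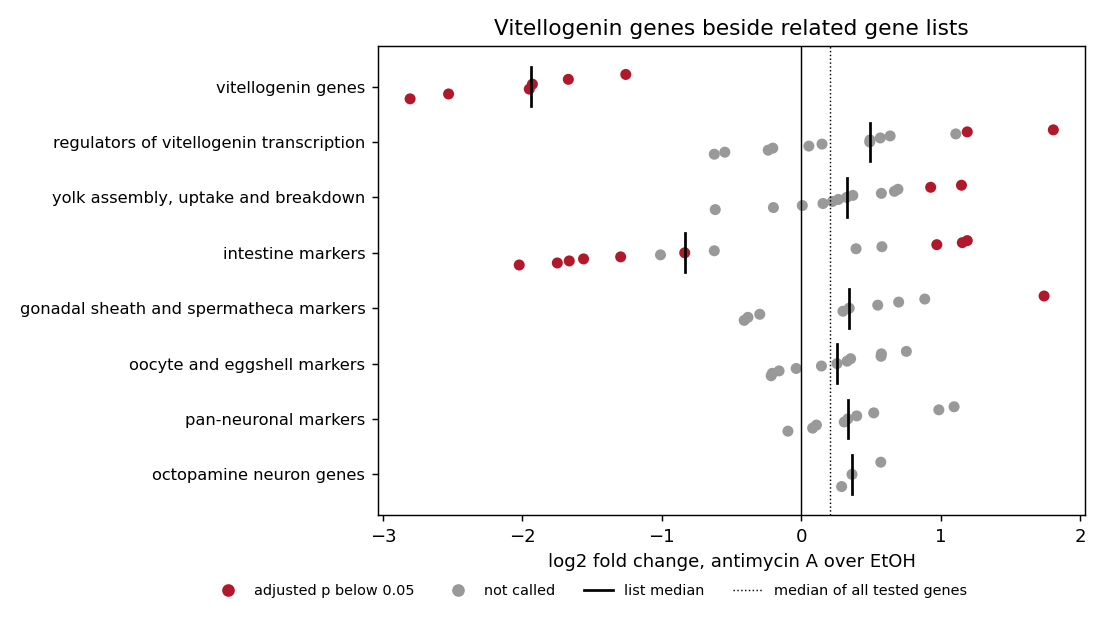
Log2 fold change of antimycin A over EtOH for each tested gene of 8 groups (rows), red where the adjusted p is below 0.05, with the list median as a bar and the median of all tested genes, 0.21, as a dotted line. All 6 vitellogenin genes are red and left of -1, and the 2 red genes of each of the next 2 rows are to the right of 0.

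Markers of other cells in the pull-down were counted in the same fit. Of 9 gonadal sheath and spermatheca markers 1 rose, the filamin gene *fln-1* (1.74 ± 0.49 SE, limma adjusted p = 0.0290), a call lost without antimycin A replicate 1 or 2 or EtOH replicate 2 or 3, with no filter (0.139), and without pair 1 (0.0507) or pair 2 (0.331). The innexin gene *inx-8* averaged 4622 TPM ± 737 in antimycin A and 3201 TPM ± 753 in EtOH (adjusted p = 0.149, blocked 0.0206), *inx-9* had an adjusted p of 0.0787 (blocked 7.51e-04), *let-502* of 0.143 (blocked 0.00166) and *myo-3* of 0.556. Under quantile normalization *inx-8* (limma adjusted p = 0.0394) and *inx-9* (0.00398) passed as higher, and *inx-9* also did scaled to the protein-coding total (0.0402). With quantile normalization 3 sheath markers rose and 2 fell, where 1423 of the 11099 tested genes were higher and 1398 lower. Of 11 oocyte and eggshell markers limma called 0, with 1 higher at an unadjusted p under 0.05, and *perm-2*, *perm-4* and *egg-2* had adjusted p values of 0.471, 0.0567 (blocked 0.0283) and 0.541 (blocked 0.0271). Of 9 tested pan-neuronal markers it called 0, with 2 higher at an unadjusted p under 0.05, and *snb-1*, *egl-3*, *unc-64* and *snt-1* had adjusted p values of 0.0911 (blocked 7.36e-07), 0.0507 (blocked 2.20e-04), 0.324 and 0.502. Of the 3 octopamine neuron genes it called 0, with 0 at an unadjusted p under 0.05. The sheath markers summed to 4947 to 6664 TPM in antimycin A and 2893 to 4429 TPM in EtOH. The oocyte and eggshell markers summed to 124246 to 148290 TPM in antimycin A and 88259 to 114056 TPM in EtOH. Nearly all of that sum was *perm-2* and *perm-4*, which averaged 94524 and 42769 TPM in antimycin A and 75368 and 25633 TPM in EtOH. The next highest, *oma-2*, averaged 56.0 TPM in antimycin A and 68.4 TPM in EtOH. Each marker of this list other than *perm-2* and *perm-4* overlapped between the groups. *perm-2* alone took 9.85%, 10.1% and 8.42% of all TPM for antimycin A replicates 1 to 3. In EtOH replicates 1 to 3 it took 6.66%, 7.68% and 8.28%. What these sums did to the vitellogenin share was not tested. The sheath, oocyte and neuronal lists had medians of 0.34, 0.26 and 0.33, beside 0.21 for all tested genes. With the block 4, 3 and 2 of their genes rose, where 3282 of the 11099 tested genes were higher. Without EtOH replicate 1 each list had 2 that rose, where 2059 of 10703 tested genes were higher. Without antimycin A replicate 3 the sheath list had 2 and the neuronal list 1.

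Hypodermis, coelomocyte and body wall muscle markers were mostly low. Of the 5 hypodermis markers 2 were tested: *col-19*, an adult collagen gene, fell (-0.82 ± 0.24 SE, limma adjusted p = 0.0347), a call lost without antimycin A replicate 2 or 3 or EtOH replicate 2 or 3, with no filter (0.0990), and without pair 2 (0.287) or pair 3 (0.167). *dpy-7* averaged 4.68 TPM ± 2.11 in antimycin A and 0.473 TPM ± 0.0481 in EtOH. Every EtOH library was below 1 TPM, so *dpy-7* passed the filter only through its antimycin A libraries. The filter thus fixed its direction, and its call is not read as a result. It dropped below the filter when any antimycin A library was left out. Coelomocytes, scavenger cells that take up material from the body cavity, had 2 of 5 markers tested and limma called 0 (0 at an unadjusted p under 0.05), with adjusted p values of 0.356 for *cup-5* (blocked 0.0419) and 0.994 for *rme-8*. Body wall muscle had 3 of 4 tested with 0 called (0 at an unadjusted p under 0.05), and *unc-54*, *myo-3* and *unc-15* had adjusted p values of 0.869, 0.556 and 0.958.

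The genes next to the vitellogenin genes gave a varied picture. *spp-14*, a saposin-like gene 1506 bp before *vit-1*, averaged 2206 TPM in antimycin A and 8172 TPM in EtOH (log2 fold change -1.87, limma adjusted p = 7.90e-04). *cht-1*, for a chitinase-like protein, lies 3454 bp before *vit-5* and averaged 27.4 TPM in antimycin A and 4.63 TPM in EtOH (2.34, adjusted p = 9.47e-04). *rgs-7*, for a regulator of G protein signalling 1240 bp from *vit-4*, averaged 12.8 and 3.54 TPM in antimycin A and EtOH (1.61, adjusted p = 0.0297). *unc-78*, for an actin-interacting protein 61 bp after *vit-5*, averaged 15.2 and 9.08 TPM (0.68, adjusted p = 0.137, blocked 0.00634). *set-12*, 166 bp after *vit-1*, averaged 1.58 and 0.810 TPM (0.53, limma adjusted p = 0.332, blocked 0.0986). The neighbours *acn-1*, *C42D8.9*, *T27A10.5*, *K07H8.7* and *K07H8.8* did not pass the filter for testing. Among all tested genes 6.47% were lower and 14.2% higher. These neighbours were taken by position, and were read after the values of the family were known.

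The genes whose pattern was most like that of *vit-2*, the vitellogenin gene with the highest mean, were ranked by Pearson correlation of log2(TPM + 1) over the 6 libraries among 1028 other protein-coding genes with a mean of 100 TPM or more. The top 5 were *Y51H1A.3* (r = 0.996), *rpia-1*, for a probable ribose 5-phosphate isomerase (0.996), *tomm-7*, for a subunit of the mitochondrial import receptor (0.996), *F57F5.1* (0.995) and *cpr-6* (0.994). *F57F5.1* read 330, 247 and 122.2 TPM for antimycin A replicates 1 to 3, against 1512, 1682 and 1623 TPM in EtOH replicates 1 to 3. Of the candidates, 196 reached r = 0.95, and the 6 libraries fall into 2 groups and share their scaling, so r mostly restates a difference between the groups. Within the family *vit-1* had r = 0.993 with *vit-2*, *vit-4* and *vit-5* 0.987, *vit-3* 0.968 and *vit-6* 0.943.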

How the data were processed

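TPM for 46904 genes come from the authors' deposited table of 6 libraries, and the 3 deposited tables of same-numbered pairs repeat the identical TPM. Per the file headers, each also holds a TPM ratio, its log2, and p- and q-values, and the first an SD of the TPM signal per group. The submitters' processing notes name HISAT2, StringTie 2.1.4, Trimmomatic 0.36, bcl2fastq 2.20, DESeq2 1.28.1 and build WBcel235. Strand setting and the handling of reads shared by near-identical genes: not given in the sources used here. The files mark no signal as 0.0001 TPM, which was set to 0. Depth is unknown.

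The 11099 genes with at least 1 TPM in 3 or more libraries were fitted with limma 3.58.1 (R 4.3.3) on log2(TPM + 1), pseudocount 1, with a mean-variance trend and group alone as a term, two-sided, with Benjamini-Hochberg adjustment over all of them. This fit was the planned test, and a count test was planned only if the deposited values were raw counts. The code was tested on simulated data. Shares, sums and exact permutation tests used Python 3.11.15, pandas 2.3.3, numpy 2.4.6 and scipy 1.17.1; figures used matplotlib 3.10.9. Same-numbered libraries deviated together (r = 0.68, 0.31 and 0.59 across 11099 genes for numbers 1, 2 and 3) and come from 1 experiment each per the design text, so the numbers were taken as pairs; blocked values are given where they change a call. Members, the 10 gene lists and the naming rule (all members, the 4 smallest p values of each list, 11 further genes, and the 5 genes most like *vit-2*) were chosen with earlier results of these data known. Neighbouring genes were added after the values were seen. Promoter and protein sequences were not used here.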

Additional observations from a re-analysis of the deposited data

How the results depend on the processing

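Depth is unknown, and 3 libraries a group and reads shared between near-identical copies limit the precision. Across 17 alternatives *vit-1* to *vit-5* kept their direction and passed in all, with log2 fold changes of -1.98 to -1.48 for *vit-1*, -2.28 to -1.61 for *vit-2*, -3.04 to -2.15 for *vit-3*, -3.33 to -2.37 for *vit-4* and -2.40 to -1.51 for *vit-5*. *vit-6* kept its direction in all 17 and passed in 11. It was -1.26 with no filter (adjusted p = 0.106) and -0.80 under quantile normalization (0.0740). It ran from -1.61 to -0.87 with 1 library left out and from -1.57 to -0.93 with 1 pair left out. With the replicate block 3282 genes were higher and 1442 lower over all genes, and the block changed no call among the 6. Genes lower numbered 1231 under median-of-ratios scaling and 1398 under quantile normalization. With 1 library left out 768 to 2059 were higher and 410 to 705 lower, and with 1 pair left out 391 to 1226 and 162 to 674. The cause was not tested. Array quality weights were planned, but their estimation stopped before convergence, and they were left out after that output was seen. The promoter motif count was not run.

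Signs that turned were all of genes not called. Under median-of-ratios scaling these were *lrp-2* (-0.023), *rme-8* (-0.18), *tbh-1* (-0.020) and *unc-54* (-0.18), and under quantile normalization *cpl-1* (0.029), *lrp-2* (-0.14), *perm-2* (-0.27), *rme-8* (-0.28) and *unc-54* (-0.13). *rme-8* was -0.0013 with the total taken without vitellogenin genes. With libraries or pairs left out *rme-8* ran from -0.22 to 0.21, *unc-54* from -0.17 to 0.39, *unc-15* from -0.22 to 0.18 and *unc-62* from -0.42 to 0.083.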
